A study of Arabidopsis thaliana with 20 samples.

Results

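The 9 chlorophyll breakdown genes described here encode the enzymes that carry chlorophyll b and chlorophyll a to the first colourless product, plus the chlorophyllase CLH1. The rule that picked them names gene identifiers and uses no measured value, though earlier results of these data were known when it was set. They come from the 33104 genes of the deposited tables. All 9 were among the 19311 genes tested. RNA came from whole leaves of Arabidopsis thaliana plants 4 weeks old, grown in days of 10 h and nights of 14 h. The wild type Col-0 was compared with ilp1-1, a mutant line named for the gene ILP1. The labels give no further detail of the allele. The harvest called 0 h followed 2 h of growth light at 100 µmol photons m-2 s-1. Plants then stood in unbroken light of 500 µmol photons m-2 s-1 and were taken after 4, 8 and 16 h. The harvest called 30 h followed 24 h of this high light and 6 h of growth light. There were 2 poly-A RNA libraries for every genotype at every harvest, so 20 in 10 groups. No later harvest of plants left in growth light was analysed here, so high light and time of day cannot be told apart. The labels do not say whether the libraries of a group come from separate plants, and the p-values cover the spread among these libraries alone, which may be technical.

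Chlorophyll b leaves the pigment pool by way of chlorophyll a. The chlorophyll b reductases NYC1 and NOL make 7-hydroxymethyl chlorophyll a, and HCAR reduces this to chlorophyll a. The Mg-dechelatases NYE1 and NYE2, named SGR1 and SGR2 in the deposited tables, then remove magnesium to give pheophytin a. Pheophytinase (PPH) cuts off the phytol tail, pheophorbide a oxygenase (PAO) opens the ring, and red chlorophyll catabolite reductase (RCCR) makes the first colourless product. The pathway is best known for the loss of green colour in ageing or darkened leaves, where NYE1 is a main regulator of its onset. CLH1 is a chlorophyllase that jasmonate and wounding induce, and it is dispensable for leaf senescence.

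The sequences before the gene starts are shown for the members that hold one of 4 motifs in the 250 bases upstream. These motifs were searched because they tie to light, the clock or abscisic acid. They were the G-box CACGTG, the ABRE core ACGTG (which every G-box contains), the evening element AAAATATCT and the CCA1 site AAAAATCT, on both strands. Capitals mark the matches, each sequence runs 5′ to 3′ on the strand of its gene, and all come from the RefSeq copy of TAIR10.1. NYC1 is shown as the member with the widest range, from chr4:7687007-7687256 on the minus strand. NYE2 is shown from chr4:7155900-7156149 on the plus strand. For NOL, the member with the widest difference between genotypes, only the 30 bases around its match at chr5:1434741-1434770 on the plus strand are shown. The annotated span of the neighbour AT5G04895 (ABO6 in RefSeq) covers 246 of the 250 bases before NOL.
NYC1: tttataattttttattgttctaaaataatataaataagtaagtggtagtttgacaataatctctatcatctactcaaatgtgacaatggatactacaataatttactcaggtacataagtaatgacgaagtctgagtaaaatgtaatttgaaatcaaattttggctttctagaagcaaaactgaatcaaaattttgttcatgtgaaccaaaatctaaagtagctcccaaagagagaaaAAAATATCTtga
NYE2: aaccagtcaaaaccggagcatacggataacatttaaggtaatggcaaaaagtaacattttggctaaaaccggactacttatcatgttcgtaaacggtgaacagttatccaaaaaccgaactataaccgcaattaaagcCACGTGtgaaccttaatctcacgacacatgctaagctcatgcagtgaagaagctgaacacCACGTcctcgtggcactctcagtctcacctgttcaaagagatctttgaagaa
NOL: cttatatgccgcCACGTGgcatttaactct
The evening element of NYC1 began 12 bases before the gene start. The NOL G-box began 21 bases before the start. NYE2 held a G-box beginning 112 bases before its start and a separate ABRE core at 52 bases. Of 27419 windows of this length before protein-coding genes, 2.36% held the evening element, 6.48% the G-box, 22.9% the ABRE core and 6.69% the CCA1 site. Among the 9 members these counts were 1, 2, 2 and 0. The other 6 held none of these letters. Among these 6, the annotated span of AT3G44870 covers all 250 bases searched before PAO, and that of PYR4 covers 65 of the bases before NYE1. A match is a description of the sequence and says nothing about binding.

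Reads recovered from the deposited values came to 11.4 to 19.0 M per library. Plastid-encoded genes made up 0.0994 to 0.452% of reads in ilp1-1 at 4 h and 8 h (4 libraries) and 0.0188 to 0.0349% in the other 16. Libraries labelled ilp1-1 did not hold less ILP1 (AT5G08550) RNA. Its level lay between 2.63 and 3.88 FPKM in Col-0 and between 2.72 and 8.90 FPKM in ilp1-1. ILP1 was called higher in ilp1-1 in the mean genotype difference (log2 value 0.44), at 0 h (1.09) and at 4 h (0.51). No difference passed at 8, 16 or 30 h. Within ilp1-1 it was called lower at 4, 8, 16 and 30 h than at 0 h, and no such change passed in Col-0. Directions follow the labels. The senescence marker SAG12 stood at 18.5 FPKM in Col-0 0 h replicate 2, at 0.0910 FPKM in replicate 1 and at 1.62 FPKM or below elsewhere. FPKM is scaled by gene length, so levels can be set beside each other between genes. Fold changes are ratios of mean FPKM, and log2 values are differences of log2(FPKM + 1) ± SE, which understate the change of genes at low levels. A gene was called changed at a Benjamini-Hochberg adjusted p under 0.05 over all tested genes.

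The first question was how the pathway's transcripts moved in the wild type after the shift. The clearest rise was that of NYC1 (AT4G13250, chromosome 4, 7684156 to 7687006, minus strand). Its level was 24.5 and 27.1 FPKM in the Col-0 libraries of 0 h, 92.8 and 93.0 at 4 h, 183 and 174 at 8 h, 110 and 105 at 16 h and 66.2 and 62.3 at 30 h. All later libraries stood above both of 0 h. The mean was 3.61-fold higher at 4 h, and 6.93-fold at 8 h (2.75 ± 0.082, adjusted p = 4.19e-13), 4.17-fold at 16 h and still 2.49-fold at 30 h. These changes from 0 h share the 0 h libraries.

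NOL (AT5G04900, chromosome 5, 1434774 to 1437495, plus strand) is the second chlorophyll b reductase. The Col-0 libraries held 20.9 and 19.6 FPKM at 0 h, 25.1 and 23.9 at 4 h, 22.1 and 17.4 at 8 h, 20.3 and 21.8 at 16 h and 17.6 and 20.4 at 30 h. No change from 0 h passed the test, and the highest value was 0.26 ± 0.11 at 4 h (adjusted p = 0.0609). At 0 h NYC1 and NOL stood near each other in Col-0, with NYC1 at 1.17 and 1.38 times the NOL level. At 8 h that ratio was 8.27 and 10.0.

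HCAR (AT1G04620, chromosome 1, 1282163 to 1286619, minus strand), which completes the conversion to chlorophyll a, reached its high levels at 8 h and 16 h. In Col-0 it stood at 6.26 and 6.53 FPKM at 0 h, 7.61 and 8.98 at 4 h, 27.3 and 24.3 at 8 h, 24.2 and 27.0 at 16 h and 9.46 and 10.97 at 30 h. The libraries of 8 h and 16 h stood apart from all others. The mean was 4.03-fold higher at 8 h (1.85 ± 0.117, adjusted p = 2.48e-09), 4.00-fold at 16 h and 1.60-fold at 30 h. The smaller rise at 4 h (0.33 ± 0.117, adjusted p = 0.0314) was lost with total-read scaling, with limma-voom and without any of 3 single libraries, Col-0 0 h replicate 1 or 2 or Col-0 4 h replicate 2. It then stood between 0.22 and 0.35 without a library.

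NYE1 (AT4G22920, chromosome 4, 12016420 to 12018643, minus strand), the main Mg-dechelatase, moved the other way. Col-0 libraries held 19.5 and 19.3 FPKM at 0 h, 6.97 and 6.73 at 4 h, 6.01 and 5.75 at 8 h, 8.44 and 9.51 at 16 h and 16.5 and 12.6 at 30 h. Every later library stood below both of 0 h. The mean was lower 2.83-fold at 4 h, 3.29-fold at 8 h (-1.57 ± 0.136, adjusted p = 1e-07) and 2.16-fold at 16 h. The difference left at 30 h (-0.40 ± 0.136, adjusted p = 0.0275) did not pass with total-read scaling or without Col-0 0 h replicate 1, Col-0 0 h replicate 2 or Col-0 30 h replicate 2, and was then between -0.41 and -0.22 without a library.

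NYE2 (AT4G11910, chromosome 4, 7156150 to 7158047, plus strand), the second dechelatase, was the lowest member, with 10 to 96 reads per library. In Col-0 it stood at 2.36 and 2.35 FPKM at 0 h, 1.32 and 1.80 at 4 h, 1.23 and 1.68 at 8 h, 0.646 and 1.67 at 16 h and 5.49 and 3.47 at 30 h. No change from 0 h passed in Col-0. The adjacent gene AT4G11911, which the deposited tables describe as similar in sequence, ran from 0.153 to 9.20 FPKM and could share reads with NYE2. It stood at 0.568 and 0.639 FPKM at 0 h and at 9.20 and 6.71 FPKM at 8 h in Col-0, where NYE2 was not higher.

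PPH (AT5G13800, chromosome 5, 4451733 to 4454813, minus strand) had the narrowest range of group means, 1.68-fold from lowest to highest. Levels in Col-0 were 25.1 and 26.5 FPKM at 0 h, 23.4 and 20.3 at 4 h, 24.2 and 19.6 at 8 h, 21.9 and 19.1 at 16 h and 31.0 and 26.4 at 30 h, and no change from 0 h passed.

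PAO (AT3G44880, chromosome 3, 16383595 to 16386344, plus strand), the enzyme that opens the ring, dipped and then rose. Its Col-0 levels were 32.5 FPKM in both libraries of 0 h, 22.3 and 23.0 at 4 h, 20 and 22.6 at 8 h, 28.5 and 29.4 at 16 h and 44.8 and 40.2 at 30 h. The libraries of 4 h and 8 h lay below all others in Col-0, and those of 30 h above. The change was -0.51 ± 0.0932 at 4 h, -0.59 ± 0.0932 at 8 h (adjusted p = 6.56e-05). The value for 30 h was 0.37 ± 0.0932 (adjusted p = 0.00454). It stood at 0.30 without Col-0 30 h replicate 1 and did not pass then.

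RCCR (AT4G37000, chromosome 4, 17442612 to 17444295, plus strand), the next enzyme, was higher at each later harvest. Its Col-0 levels were 39.4 and 36.5 FPKM at 0 h, 63.0 and 55.9 at 4 h, 49.4 and 51.1 at 8 h, 62.2 and 61.2 at 16 h and 48.9 and 48.7 at 30 h. The mean was 1.57-fold higher at 4 h, 1.32-fold at 8 h, 1.62-fold at 16 h (0.69 ± 0.0846, adjusted p = 6.74e-06) and 1.28-fold at 30 h. The gene AT4G37010 overlaps 167 bases of RCCR on the same strand. It stayed at 11.3 FPKM or below.

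CLH1 (AT1G19670, chromosome 1, 6803486 to 6805092, minus strand) had the highest level of the 9. Its Col-0 levels were 103 and 108 FPKM at 0 h, 275 and 235 at 4 h, 290 and 268 at 8 h, 258 and 228 at 16 h and 140 and 115 at 30 h. The mean was 2.41-fold higher at 4 h, 2.64-fold at 8 h (1.39 ± 0.179, adjusted p = 8.19e-06) and 2.29-fold at 16 h, with no call at 30 h.

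**Figure D1:**
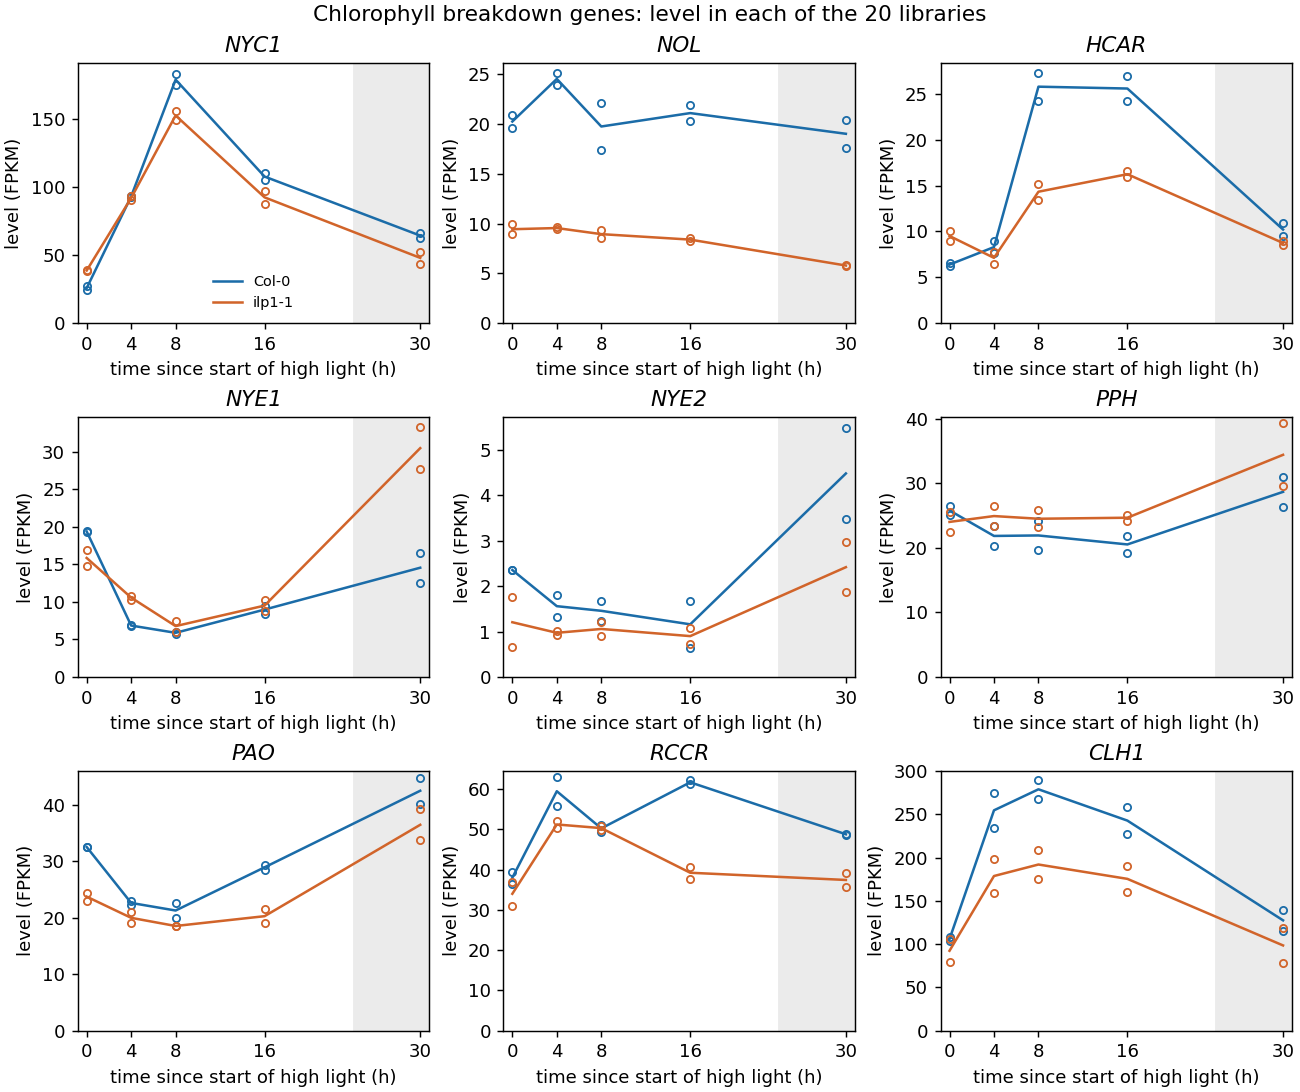
Levels of the 9 genes in FPKM (vertical axes from 0) against hours since high light began, in Col-0 (blue) and ilp1-1 (orange). Circles are single libraries, lines join the means of 2 libraries, and grey marks the return to growth light after 24 h. NYC1, HCAR and CLH1 peak at 8 h or 16 h, NYE1 is lowest at 8 h, and NOL runs at a lower level in ilp1-1 throughout.

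Counted together, 4 members were higher and 2 lower in Col-0 at 4 h, when 46.1% of all tested genes were called, 22.6% higher and 23.5% lower. At 8 h the count was again 4 and 2 (all genes 50.1%, 24.9% higher and 25.1% lower). At 16 h it was 4 and 1 (all genes 42%, 22.2% and 19.8%), as it was at 30 h (all genes 40.4%, 20.8% and 19.7%). NYC1, HCAR, RCCR and CLH1 were the members that rose at 4, 8 and 16 h. NYE1 and PAO were those that fell at 4 h and 8 h. The members' medians at these 4 harvests were 0.26, -0.04, 0.06 and 0.35 in turn, and the medians of all genes lay between -0.04 and -0.01.

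**Figure D2:**
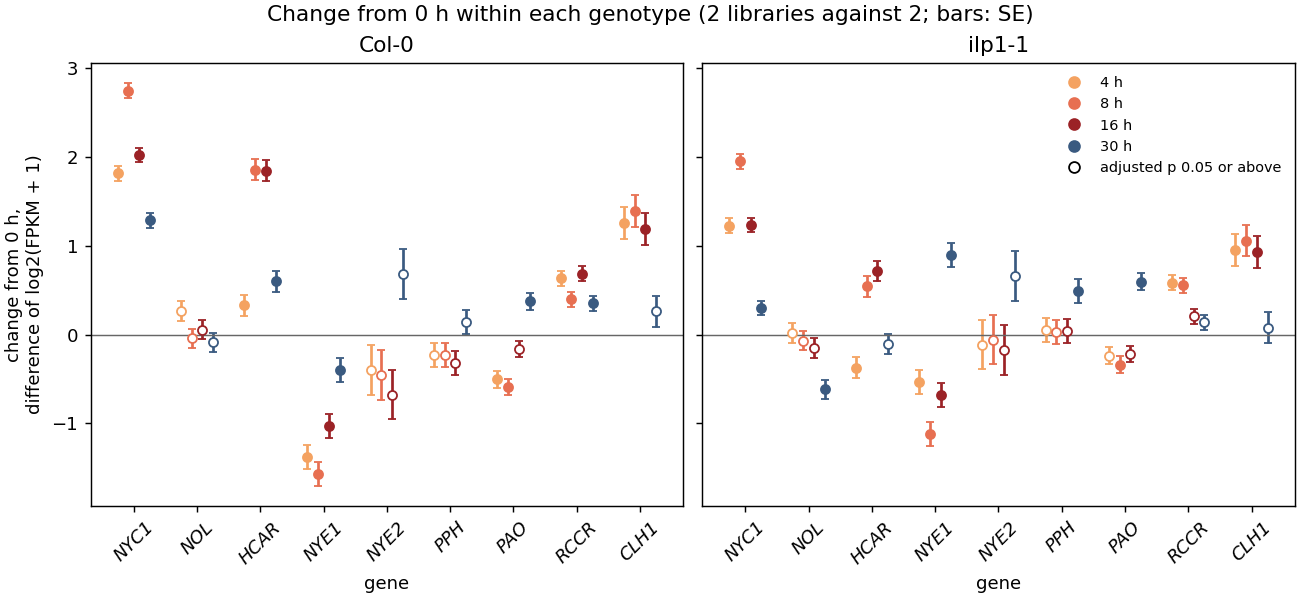
Change from 0 h in Col-0 (left) and ilp1-1 (right) as differences of log2(FPKM + 1), with SE bars, 2 libraries against 2. Filled points passed the test and open points did not. NYC1 rises in both panels, and NYE1 is below 0 at 4, 8 and 16 h in both and above 0 at 30 h in ilp1-1 alone.

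In ilp1-1, 3 members were higher and 2 lower at 4 h (all genes 41% called, 20.6% higher and 20.4% lower). The count was 4 and 2 at 8 h (47%, 23.8% and 23.2%). It was 3 and 1 at 16 h (43.8%, 21.7% and 22.1%), and 4 and 1 at 30 h (52.1%, 27.6% and 24.5%). At 4 h the count of 5 was 3 without ilp1-1 0 h replicate 2, and at 30 h the count of 5 was 3 without ilp1-1 30 h replicate 2. NYC1 ran from 38.3 and 38.9 FPKM at 0 h to 90.4 and 93.1 at 4 h, 156 and 149 at 8 h, 97.2 and 87.3 at 16 h and 43.4 and 52.4 at 30 h. It started above Col-0 and peaked below it. Its rise was 3.94-fold at 8 h (1.95 ± 0.0821). The rise left at 30 h (0.30 ± 0.0821) was 0.16 and not called without ilp1-1 30 h replicate 2.

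HCAR in ilp1-1 stood at 8.98 and 10.0 FPKM at 0 h, 7.78 and 6.48 at 4 h, 13.5 and 15.2 at 8 h, 16.5 and 15.9 at 16 h and 8.94 and 8.55 at 30 h. Its peak was 1.71-fold above 0 h at 16 h (0.72 ± 0.117), beside the 4-fold peak in Col-0. The fall at 4 h (-0.37 ± 0.117) was -0.30 without ilp1-1 0 h replicate 2 and -0.26 without ilp1-1 4 h replicate 2, and was not called in either case.

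NYE1 in ilp1-1 stood at 14.8 and 16.9 FPKM at 0 h, 10.3 and 10.8 at 4 h, 7.50 and 6.04 at 8 h, 10.3 and 8.74 at 16 h and 27.7 and 33.3 at 30 h. Both libraries of 30 h exceeded every other library of the series. The mean was 1.5-fold lower at 4 h (-0.54 ± 0.136), a call lost without ilp1-1 0 h replicate 2, when the value was -0.45. It was 2.34-fold lower at 8 h and 1.92-fold higher than at 0 h by 30 h (0.90 ± 0.136, adjusted p = 4.52e-05).

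CLH1 in ilp1-1 stood at 106 and 79.2 FPKM at 0 h, 159 and 199 at 4 h, 175 and 209 at 8 h, 191 and 160 at 16 h and 78.8 and 118 at 30 h. It rose at 4, 8 and 16 h. RCCR stood at 36.9 and 31.1 FPKM at 0 h, 50.2 and 52.2 at 4 h, 50.8 and 49.8 at 8 h, 37.7 and 40.7 at 16 h and 35.7 and 39.2 at 30 h, with rises called at 4 h and 8 h. PAO stood at 23.0 and 24.5 FPKM at 0 h, 19.0 and 21.0 at 4 h, 18.6 and 18.5 at 8 h, 21.6 and 19.0 at 16 h and 33.7 and 39.2 at 30 h. It was lower at 8 h (-0.34 ± 0.0932, which became -0.30 and was not called without ilp1-1 0 h replicate 2) and higher at 30 h (0.60 ± 0.0932).

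PPH, NYE2 and NOL had no called change before 30 h in ilp1-1. PPH stood at 25.6 and 22.5 FPKM at 0 h, between 23.2 and 26.4 FPKM at 4, 8 and 16 h, and at 29.5 and 39.3 FPKM at 30 h. Its rise at 30 h (0.49 ± 0.137) was 0.40 without ilp1-1 0 h replicate 2 and 0.29 without ilp1-1 30 h replicate 2, and was not called in either case. NYE2 stood between 0.652 and 1.76 FPKM up to 16 h and at 1.87 and 2.97 FPKM at 30 h, where its change from 0 h did not pass either. NOL stood at 9.94 and 8.92 FPKM at 0 h, between 8.22 and 9.64 FPKM at 4, 8 and 16 h, and at 5.73 and 5.85 FPKM at 30 h, a fall of 1.63-fold (-0.62 ± 0.11, adjusted p = 0.000208).

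The last harvest was also set against 16 h, which does not share the 0 h libraries. In Col-0, 4 members were higher and 4 lower at 30 h than at 16 h (all genes 37.7% called, 18.4% higher and 19.3% lower). In ilp1-1 the count was also 4 and 4 (44.6%, 24.6% and 20%). In both genotypes the dechelatases NYE1 and NYE2, the pheophytinase PPH and the oxygenase PAO were the 4 that rose, and NYC1, HCAR and CLH1 were among those that fell. RCCR completed the latter group in Col-0 (-0.33 ± 0.0846) and NOL in ilp1-1 (-0.47 ± 0.11). NYE1 rose 1.62-fold in Col-0 and 3.21-fold in ilp1-1 (1.58 ± 0.136, adjusted p = 2.59e-07). NYE2 rose 3.86-fold in Col-0 (1.36 ± 0.278) and 2.69-fold in ilp1-1 (0.83 ± 0.278). The latter was 0.70 without ilp1-1 16 h replicate 2 and 0.60 without ilp1-1 30 h replicate 2 and then not called. The PPH rises were 0.46 ± 0.137 in Col-0 and 0.45 ± 0.137 in ilp1-1. The first was 0.37 without Col-0 16 h replicate 2 and 0.35 without Col-0 30 h replicate 1, the second 0.42 without ilp1-1 16 h replicate 2 and 0.25 without ilp1-1 30 h replicate 2, and none of these 4 fits called it.

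The difference between genotypes in each change was tested as an interaction. The 4 differences in the change from 0 h share the same 0 h libraries. For the change to 4 h, 1 member had a higher and 2 a lower value in ilp1-1 (all genes 9.34% called, 4.22% higher and 5.12% lower). To 8 h 2 were called, both lower (13.3%, 6.49% and 6.78%). To 16 h 3 were called, all lower (14.2%, 4.6% and 9.59%), and to 30 h 1 was higher and 3 lower (16.8%, 7.65% and 9.19%). NYC1 and HCAR were called at all 4 hours, each time with less rise or more fall in ilp1-1. The 4 NYC1 differences, in order of time, were -0.59, -0.80, -0.79 and -0.99, each ± 0.116 (adjusted p = 2.71e-05 for the last). Those of HCAR were -0.70, -1.31, -1.13 and -0.71, each ± 0.165 (adjusted p = 7.75e-05 for the change to 8 h). Both genes started higher in ilp1-1 at 0 h, and that level enters all 4 values.

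NYE1 differed in its change at 4 h (0.84 ± 0.192) and at 30 h (1.3 ± 0.192, adjusted p = 0.000235). It was also the member called for the step from 16 h to 30 h (0.95 ± 0.192, adjusted p = 0.00918), where 1 of 9 members and 4.63% of all genes (2.84% higher and 1.8% lower) passed. NOL at 30 h (-0.53 ± 0.155, adjusted p = 0.029) was lost with total-read scaling and without any of 5 libraries, Col-0 0 h replicate 2, Col-0 30 h replicate 2, ilp1-1 0 h replicate 1 and both of ilp1-1 30 h, with values between -0.54 and -0.43. RCCR at 16 h (-0.48 ± 0.12, adjusted p = 0.0131) was lost with total-read scaling and without Col-0 0 h replicate 2, ilp1-1 0 h replicate 1 or ilp1-1 16 h replicate 1, with values between -0.43 and -0.36. HCAR at 4 h was lost without Col-0 4 h replicate 2, ilp1-1 0 h replicate 2 or ilp1-1 4 h replicate 2, with values between -0.63 and -0.58.

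The genotypes were then compared at each harvest and as a mean over the 5 harvests, 10 libraries against 10. NOL gave the widest difference. Its highest ilp1-1 library held 9.94 FPKM and its lowest Col-0 library 17.4 FPKM, so the genotypes did not overlap at any hour. In order of time the Col-0 mean exceeded that of ilp1-1 by 2.15, 2.57, 2.21, 2.51 and 3.28-fold. The mean difference was -1.23 ± 0.049 (adjusted p = 1.18e-11). Of the 19311 tested genes, 93 (0.482%) were as low in ilp1-1 or lower. No alternative setting ended a NOL genotype call.

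NOL lies 1328 kb from ILP1 on chromosome 5. Of the 20 tested genes nearest to NOL, 6 were higher and 3 lower in ilp1-1 in the mean genotype difference. Of all tested genes, 29.3% were higher and 27.8% lower there. The values of the 20 lay between -0.73 and 0.58, with a median of 0.04. The extremes were NAS1 at the low end and the upstream neighbour AT5G04895, 0.58 ± 0.077, at the high end. None of the 20 was as low as NOL, but only 0.482% of all tested genes were, so this count says little about the locus. The DNA of this locus in the ilp1-1 line was not analysed here.

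**Figure D3:**
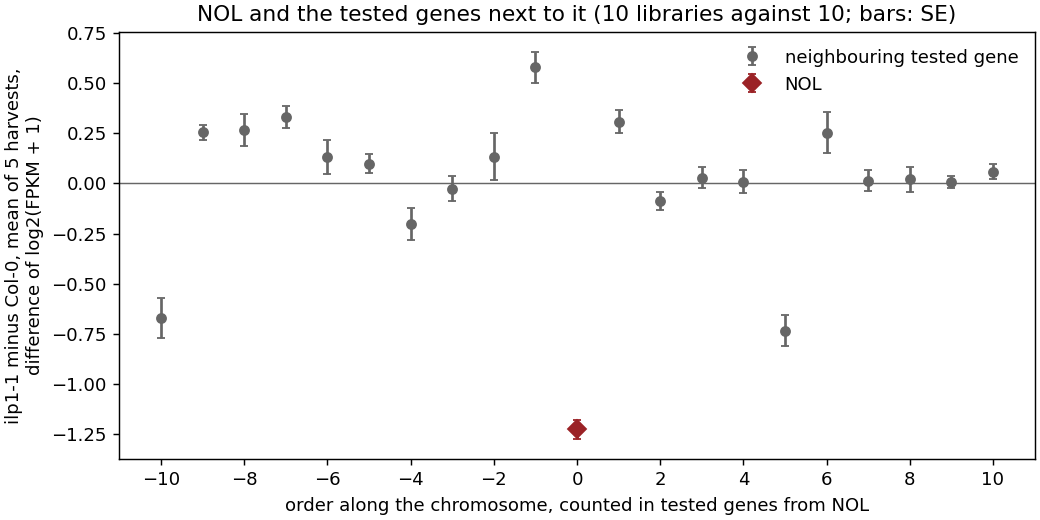
Mean genotype difference (ilp1-1 minus Col-0, log2(FPKM + 1), SE bars, 10 libraries against 10) of NOL and of 10 tested genes on each side, in chromosome order. NOL lies at -1.23, below its neighbours, which run from -0.73 to 0.58.

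With NOL lower and NYC1 on its own course, the balance of the 2 reductase transcripts differed between genotypes. In Col-0 the NYC1 to NOL ratio was 1.17 and 1.38 at 0 h, 3.69 and 3.89 at 4 h, 8.27 and 10.0 at 8 h, 5.40 and 4.82 at 16 h and 3.77 and 3.05 at 30 h. In ilp1-1 it was 3.86 and 4.37 at 0 h, 9.37 and 9.85 at 4 h, 16.7 and 17.4 at 8 h, 11.8 and 10.2 at 16 h and 7.58 and 8.96 at 30 h. Both ilp1-1 libraries stood above both Col-0 libraries at each hour. These ratios restate the levels of the 2 genes and were not tested on their own.

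**Figure D4:**
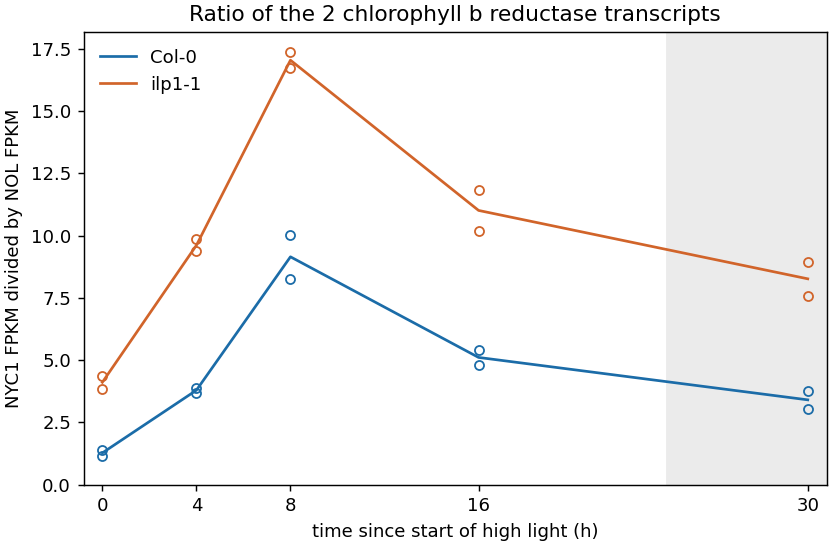
NYC1 FPKM divided by NOL FPKM (axis from 0) against hours since high light began. Circles are single libraries, lines join means of 2, blue is Col-0, orange is ilp1-1 and grey marks growth light after 24 h. Both genotypes peak at 8 h, near 9.15 in Col-0 and 17.0 in ilp1-1.

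NYC1 and HCAR were higher in ilp1-1 at 0 h and lower at some of the later harvests. At 0 h NYC1 was 1.5-fold (0.57 ± 0.0821, adjusted p = 0.00015) and HCAR 1.49-fold higher in ilp1-1 (0.51 ± 0.117, adjusted p = 0.00578). The HCAR value fell to 0.43 and was not called without ilp1-1 0 h replicate 2. At 30 h NYC1 was 1.34-fold lower in ilp1-1 (-0.42 ± 0.0821, adjusted p = 0.000948). At 16 h the NYC1 value was -0.22 (adjusted p = 0.0584), and 0.06 with total-read scaling. At 8 h it was -0.23 (adjusted p = 0.0481), a call that ended without a filter, with a pseudocount of 0.1, with total-read scaling, with the replicate block and without any of 14 of the 20 libraries (values between -0.26 and -0.19). HCAR was 1.80-fold lower in ilp1-1 at 8 h (-0.80 ± 0.117) and 1.57-fold lower at 16 h (-0.62 ± 0.117, adjusted p = 0.000889). No difference passed for either gene at 4 h, nor for HCAR at 30 h.

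NYE1 was higher in ilp1-1 at 30 h and 4 h. At 30 h its level was 2.09-fold that of Col-0 (1.02 ± 0.136, adjusted p = 3.1e-05), and at 4 h 1.54-fold (0.56 ± 0.136, adjusted p = 0.00559). At 0, 8 and 16 h no difference passed. RCCR was 1.57-fold lower in ilp1-1 at 16 h (-0.64 ± 0.0846) and 1.3-fold lower at 30 h (-0.37 ± 0.0846), the latter not called with total-read scaling (-0.15). At 0 h the RCCR value was -0.16. PAO was 1.37-fold lower at 0 h (-0.44 ± 0.0932) and 1.43-fold lower at 16 h (-0.49 ± 0.0932), the latter not called with total-read scaling (-0.23).

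CLH1 was 1.42-fold lower in ilp1-1 at 4 h (-0.51 ± 0.179, adjusted p = 0.0402). At 8 h it was 1.45-fold lower (-0.54 ± 0.179, adjusted p = 0.0326). Both calls ended without a filter and with total-read scaling. The first also ended without Col-0 4 h replicate 1 or 2 or ilp1-1 4 h replicate 1 (-0.63 to -0.35), the second without Col-0 8 h replicate 1 or 2 or ilp1-1 8 h replicate 1 (-0.60 to -0.41). At 16 h the value was -0.47 (adjusted p = 0.0636).

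**Figure D5:**
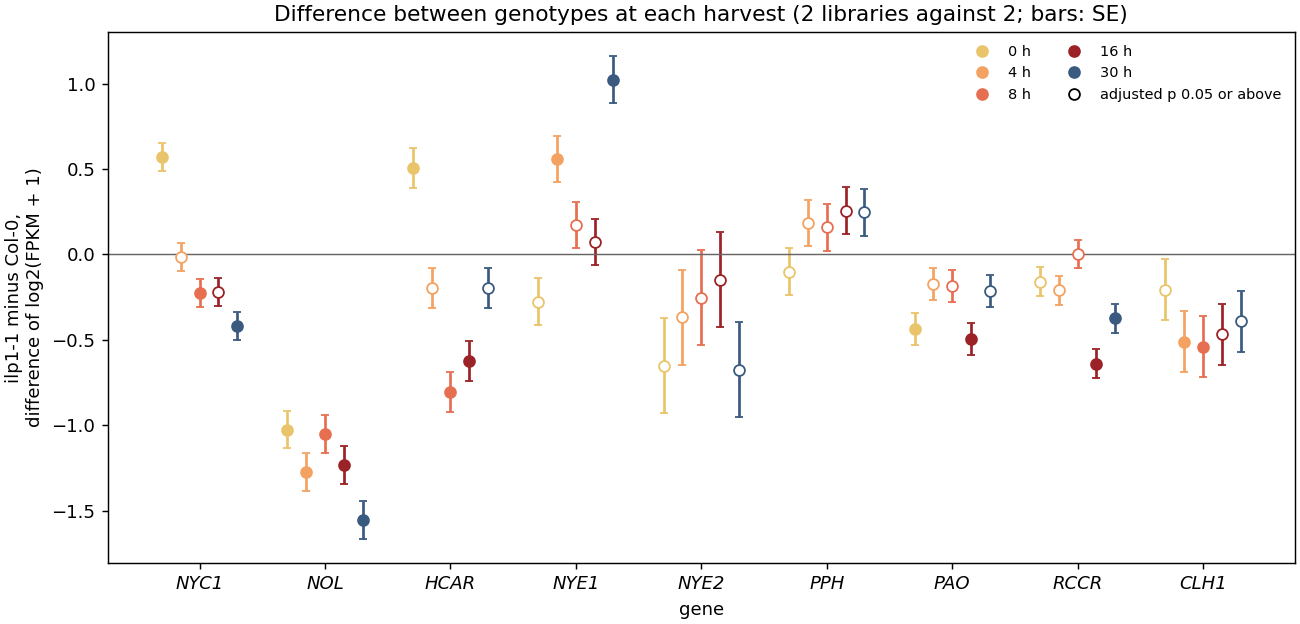
Difference between genotypes (ilp1-1 minus Col-0, log2(FPKM + 1), SE bars, 2 libraries against 2) for each gene at the 5 harvests. Filled points passed the test. NOL is below -1 at every harvest, and NYE1 reaches 1.02 at 30 h.

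By harvest, 2 members were higher and 2 lower in ilp1-1 at 0 h (all genes 22.2% called, 10% higher and 12.2% lower). The count was 1 and 2 at 4 h (30.6%, 14.7% and 15.8%). At 8 h 4 were called, all lower (29.5%, 14.3% and 15.2%), and 4 again at 16 h (27.7%, 11% and 16.7%). At 30 h 1 was higher and 3 lower (34%, 17.2% and 16.8%), and limma-voom called 7 there in place of 4. The count of 4 at 8 h was 2 without a filter, with total-read scaling, and without Col-0 8 h replicate 1 or 2 or ilp1-1 8 h replicate 1. Over the mean of the 5 harvests, NYE1 (0.31 ± 0.0608) and PPH (0.15 ± 0.061) were higher. NYE2 (-0.42 ± 0.124), NOL, HCAR (-0.26 ± 0.052), PAO (-0.30 ± 0.042), RCCR (-0.28 ± 0.038) and CLH1 (-0.42 ± 0.08) were lower. NYC1 did not pass (-0.06 ± 0.037, adjusted p = 0.153), but was higher with total-read scaling (0.11, adjusted p = 0.00978). These 8 of 9 stand beside 57.2% of all tested genes called, 29.3% higher and 27.8% lower. The members' median was -0.28, and that of all genes was 0.01. With total-read scaling the medians were -0.10 and 0.16, and 9236 genes were called higher and 3212 lower in place of 5663 and 5374. HCAR (-0.11) and PPH (0.13) did not pass when the 4 ilp1-1 libraries taken at 4 h and 8 h were left out. HCAR was also lost with total-read scaling, where it stood at -0.10. PPH (adjusted p = 0.0498) was further lost with a pseudocount of 0.1, without a filter, with the replicate block, and without any of 12 of the 20 libraries (values between 0.11 and 0.16).

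Markers of leaf cell types moved with the genotype. The 3 mesophyll markers CA1, RBCS1A and LHCB1.3 were all lower in the mean difference, and their summed level ran from 26455 to 42979 FPKM in Col-0 and from 14806 to 39671 FPKM in ilp1-1. All 4 guard cell markers were higher (sums 7.49 to 24.3 and 9.56 to 30.5 FPKM). Of 4 vascular markers 3 were higher and SUC2 lower (sums 61.7 to 128 and 62.5 to 134 FPKM). All 3 epidermis markers were lower (sums 100.0 to 257 and 83.2 to 254 FPKM). Of all tested genes 57.2% were called in this mean difference, 29.3% higher and 27.8% lower. How the marker calls fare under the alternative settings is not given here. The differences varied by harvest. At 0 h CA1, LHCB1.3, SWEET11 and SWEET12 passed, while RBCS1A and the guard cell and epidermis markers did not. SWEET12 was higher in ilp1-1 at 0 h (1.14) and lower at 8 h (-0.65). No marker was at 0 in all libraries. The markers also moved within a genotype. In Col-0 at 16 h LHCB1.3 was 10.1-fold lower than at 0 h, while RBCS1A was 1.25-fold and CA1 1.60-fold higher. The part of the markers' cell types in the members' differences was not tested. In whole leaves fewer cells of a type and less RNA per cell cannot be told apart.

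Other genes around the pathway were counted from a list of 11 for further chlorophyll breakdown, phyllobilin and phytol steps, all tested. In the mean genotype difference 2 were higher, PES1 (0.49) and PES2 (0.23), which make phytyl esters. In ilp1-1 7 were lower, SGRL (-0.51), CLD1 (-0.46), TIC55 (-0.40), MES16 (-0.46), CYP89A9 (-0.32), the phytol kinase VTE5 (-0.56) and the phytyl-phosphate kinase VTE6 (-0.40). CLH2 and CAO did not pass. Of all tested genes 57.2% were called there, 29.3% higher and 27.8% lower. The list's median was -0.40. In Col-0 at 16 h 4 were higher and 4 lower (all genes 22.2% and 19.8%). PES1 rose by 2.56, PES2 by 1.02, MES16 by 0.76 and VTE6 by 0.49. CAO, which makes chlorophyll b, fell by 3.54, from 217 and 211 FPKM to 17.2 and 17.7 FPKM. VTE5 (-1.95), CYP89A9 (-1.56) and SGRL (-1.34), a Mg-dechelatase related to NYE1, fell with it. SGRL was the dechelatase at the highest level, with 301 and 284 FPKM in the Col-0 libraries of 0 h.

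Of 20 transcription factors known for work on chlorophyll breakdown or leaf ageing, 18 were tested. ABI5 was under the filter. MYC2 was listed at 0 in every library, and AT1G32630 on the opposite strand overlaps 3241 of its 3289 bases. In the mean genotype difference 2 were higher, ANAC016 (0.50) and PIF5 (0.30). In ilp1-1 7 were lower, among them PIF4 (-0.91), EIL1 (-0.56), ORE1 (-0.49) and MYC4 (-0.35). The shares of all genes were 29.3% higher and 27.8% lower. In Col-0 at 16 h 9 were called, all lower, where 19.8% of all genes were lower. The NAC factor NAP fell from 39.1 and 33.6 FPKM at 0 h to 0.688 and 0 FPKM at 4 h and stood at 0.879 and 0.641 FPKM at 16 h (-4.41), and PIF4 fell by 5.09. From 16 h to 30 h, 9 rose and 2 fell in Col-0 (all genes 18.4% and 19.3%), and 11 rose and 2 fell in ilp1-1 (24.6% and 20%). The 13 called in ilp1-1 were 8 without ilp1-1 30 h replicate 2. NAP, ORE1, EIN3, EIL1, PIF4 and PIF5 were among those that rose in both, as NYE1, NYE2, PPH and PAO did. The members NYC1, HCAR and CLH1 fell in both over the same step. The list's median was -0.12 in the mean genotype difference and -0.36 in Col-0 at 16 h.

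Of 14 markers of senescence and darkness, all tested, 9 fell in Col-0 at 4 h (all genes 23.5% lower) and 3 in ilp1-1 (20.4%). The 3 were 5 without ilp1-1 0 h replicate 1 and 1 without ilp1-1 4 h replicate 1. The test of the difference in that change called 2 of 14, both higher in ilp1-1, beside 4.22% of all genes higher and 5.12% lower. It called 1 with a pseudocount of 0.1 and 1 without a filter. From 16 h to 30 h 9 rose in Col-0 (all genes 18.4% higher) and 11 in ilp1-1 (24.6%). For the difference in this step limma called 0 of 14, beside 4.63% of all genes. There were 4 markers at an unadjusted p under 0.05, and limma-voom also called 0. At 30 h against 0 h 5 were higher and 1 lower in Col-0 (all genes 20.8% and 19.7%), and 10 were higher in ilp1-1 (27.6%). The test of the difference in that change called 7 of 14, all higher in ilp1-1, beside 7.65% of all genes higher and 9.19% lower. It called 4 without Col-0 0 h replicate 2, Col-0 30 h replicate 2 or ilp1-1 0 h replicate 1, and 3 without ilp1-1 30 h replicate 2. SAG14 reached 153 and 217 FPKM in ilp1-1 and 124 and 91.8 FPKM in Col-0 at 30 h. WRKY53, a senescence regulator, reached 29.7 and 32.8 FPKM in ilp1-1 and 13.2 and 14.7 FPKM in Col-0, and NYE1 stood higher in ilp1-1 at the same hour. Between genotypes at 0 h, 0 markers were higher and 4 lower in ilp1-1 (all genes 10% and 12.2%), and that level enters the difference in change. At 30 h itself 4 were higher and 0 lower (all genes 17.2% and 16.8%). These 4 calls became 2 with a pseudocount of 0.1 and 7 with total-read scaling. The count also rose without ilp1-1 30 h replicate 1 and fell without ilp1-1 30 h replicate 2. The list's median was 0.32 in the mean genotype difference, -0.50 between genotypes at 0 h and 0.54 at 30 h. It was 0.99 in the difference in change to 30 h.

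The courses of the members were also compared as a description, over 10 group means of log2(FPKM + 1), which share libraries, depth and harvest times. Among members, NYC1 ran with CLH1 (r = 0.87), NYE2 with PAO (0.88), RCCR with CLH1 (0.84) and NYE1 with PPH (0.81). NYE1 ran against CLH1 (-0.91) and NYC1 (-0.85). NYC1 and NOL had r = 0.10. The pair of tested genes most like each member were RABE1C and AT4G31170 for NYE1 (both 0.98), ABCB21 (0.98) and SRM1 (0.96) for NYE2, and RUS1 and RPL36C for NYC1 (both 0.99). For NOL they were AAO2 (0.99) and PPD3 (0.98), and for HCAR AT3G02120 (0.98) and TOC132 (0.96). For PPH they were AT2G38000 (0.99) and DRP2B (0.97), and for PAO AT2G25190 and AT5G16450 (both 0.98). For RCCR they were ALATS (0.94) and AT5G19540 (0.93), and for CLH1 RPL37AC and RPL36AB (both 0.99).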

How the data were processed

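The authors deposited 10 tables of FPKM values (fragments per gene, scaled by gene length and library), 1 per genotype and time. The submitters' processing notes name HISAT2 2.0.5, the build TAIR10, and featureCounts 1.5.0-p3. Strand setting and FPKM tool: not given in the sources used here. Of 32547 nuclear loci shared with the RefSeq copy of TAIR10.1, 32531 had the same position there. FPKM times gene length gave whole reads per gene in every library (tolerance 0.001, largest distance 6.06e-07). The libraries' denominators stood at 0.889 to 0.992 times these reads in Col-0 and at 0.989 to 1.18 times in ilp1-1. Rescaling to total reads multiplies each library's FPKM by this factor, so it raises ilp1-1 against Col-0.

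Tests used limma 3.58.1 in R 4.3.3 on log2(FPKM + 1) for the 19311 genes that reached an FPKM of 1 in 2 or more libraries. Means of 10 groups were fitted, with the prior variance following mean level (10 residual degrees of freedom, median prior 5.12), for 21 contrasts, each adjusted over all tested genes. Alternatives were a pseudocount of 0.1, no filter, FPKM rescaled to total reads, limma-voom on the recovered reads, the replicate block, each library left out in turn, and, for the mean genotype difference, omission of ilp1-1 at 4 h and 8 h (4 libraries). Same-numbered libraries did not deviate together (r from -0.15 to 0.13 over 45 pairs of groups, 1 above 0.1), so numbers were not used to pair them. Members (picked by identifier), gene lists, tests and alternatives were chosen with earlier results of these data known. All members are named. List genes were named by smallest adjusted p in the mean genotype difference (up to 6 a list) and in Col-0 at 16 h (4 a list), and any others were chosen after their values were seen. Python 3.11.15 with pandas 2.3.3, numpy 2.4.6 and matplotlib 3.10.9 made the tables and plots.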

Additional observations from a re-analysis of the deposited data

Results flagged for a closer look

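Each value here is the difference between genotypes in a change (ilp1-1 minus Col-0), in log2(FPKM + 1), that passed limma's test of that difference. For the change from 0 h to 4 h these were NYE1 (0.84), NYC1 (-0.59) and HCAR (-0.70). For the change to 8 h they were NYC1 (-0.80) and HCAR (-1.31). For the change to 16 h they were NYC1 (-0.79), HCAR (-1.13) and RCCR (-0.48). For the change to 30 h they were NYE1 (1.3), NYC1 (-0.99), NOL (-0.53) and HCAR (-0.71). For the step from 16 h to 30 h it was NYE1 (0.95). Apart from the last, all share the libraries of 0 h.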

How the results depend on the processing

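Of 98 called results of members, 76 stayed called with the same sign under every alternative run and 22 lost the call under at least 1, and 0 changed sign. Of 412 called results of ILP1 and of genes in the breakdown, regulator and senescence lists, 134 lost the call or changed sign under at least 1. In the mean genotype difference 8 of 14 senescence markers were called, 5 higher and 3 lower. Of all tested genes 57.2% were called there, 29.3% higher and 27.8% lower. The 8 became 4 when ilp1-1 at 4 h and 8 h was left out. Total-read scaling ended 10 of the calls, no filter 4, a pseudocount of 0.1 2 and limma-voom 1. Total-read scaling also moved the median of all genes in the mean genotype difference from 0.01 to 0.16. With it 4 named values changed sign, NYC1 in the mean difference (0.11) and at 16 h (0.0583), CAO between genotypes at 16 h (0.0345) and EIN3 in the mean difference (0.0287). This scaling multiplies values by each library's denominator over reads, 0.889 to 0.992 in Col-0 and 0.989 to 1.18 in ilp1-1. Why that factor differed between genotypes was not tested, nor were the causes of the other lost calls.

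With replicate number as a block, 2 calls ended, PPH in the mean genotype difference (0.15, adjusted p = 0.0569) and NYC1 between genotypes at 8 h (-0.23, adjusted p = 0.0572). It ended no other member call. The count of members called between genotypes at 8 h was 4, and 2 without a filter and with total-read scaling. With each library left out it ran from 2 to 4. At 30 h the 4 members became 7 with limma-voom. With each library left out, the count of 5 in ilp1-1 against 0 h ran from 3 to 6 at 4 h and also at 30 h. Without Col-0 0 h replicate 2, calls over all genes between genotypes at 0 h went from 4292 to 2508, at 8 h from 5700 to 3767 without ilp1-1 8 h replicate 2, and at 16 h from 5343 to 3528 without ilp1-1 16 h replicate 2. For the difference in change to 4 h, 1804 became 1202 without Col-0 0 h replicate 2 and 1179 without ilp1-1 4 h replicate 2. For that from 16 h to 30 h, 895 became 547 without Col-0 30 h replicate 2 and 556 without ilp1-1 16 h replicate 1. NYE2 rests on 10 to 96 reads a library.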
